A study of Mus musculus with 13 samples.

Results

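The genes described here are homeobox and other patterning transcription factors, 65 of the 13549 genes in a count table from cultured mouse oligodendrocyte-lineage cells. They were taken by symbol, as every row of the table that belongs to one of 14 families: paired box, LIM, TALE (Irx, Meis and Pbx), sine oculis (Six3, Six4 and Six5 here), paired-like and Otx, Emx and engrailed, CUT and SATB, GATA, GLI and ZIC, Sall, PRDM, AP-2, a mesenchymal group (Snai, Zeb, Twist and Hand) and the nuclear receptors Nr2f1 and Nr2f2. A gene-name table holds 104 symbols that match the same rule. The other 39, among them Gli1, Pax7, Isl1, Twist1 and Hand2, are not in the count table, and their RNA was not analysed here. Not all members carry a homeobox: among others, the GATA, GLI, ZIC, Sall, PRDM, AP-2 and Snai proteins and the nuclear receptors bind DNA through other domains.

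These factors lay down position and cell fate in the embryo. Otx, Emx and engrailed proteins mark the front, the cortex and the midbrain of the neural tube, Irx and Zic proteins pattern it further, and TALE proteins such as Meis and Pbx bind DNA together with Hox and other homeodomain proteins. Many of their genes are held silent outside their own domain by Polycomb repressive complex 2 (PRC2), which methylates histone H3 at lysine 27 and works at CpG-rich promoters. Eed is a core subunit of PRC2.

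RNA was measured in 4 groups of cells from the brains of C57BL/6 mice. Oligodendrocyte precursor cells (OPCs), grown with PDGF and NT-3, came from controls (2 libraries) and from Eed conditional knockouts (cKO, 3 libraries). Immature oligodendrocytes (iOLs), collected on day 2 after T3 was added and PDGF withdrawn, came from controls (2 libraries) and Eed cKO (2 libraries). The genotype entry of the labels reads Eed cKO for controls too, so the groups rest on the sample titles, and the Cre driver, the deleted part of Eed and the genotype of the controls are not given in the sources used here. Brains were of postnatal day 7 for OPC control 1 and OPC cKO 1 and 2, and of day 6 for the other 6 libraries. The labels do not say whether replicates come from separate animals or cultures, so p-values measure only the spread between these libraries, which may be technical.

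Levels are in CPM, read counts divided by a scaled library total, and total counts ran from 17417529 to 19680398. The check of the targeted gene found Eed at 21.7 and 16.8 CPM (control) and 13.3, 11.8 and 12.5 CPM (cKO) in OPCs and at 18.0 and 21.2 CPM (control) and 14.6 and 12.1 CPM (cKO) in iOLs. The groups did not overlap, though neither difference passed the test (log2 −0.62 ± 0.17 and −0.55 ± 0.18, edgeR adjusted p = 0.0847 and 0.0973). Summed OPC markers (6 of 6 in the table, Pdgfra and Cspg4 among them) lay between 11370 and 15030 CPM in OPCs and between 3773 and 4606 CPM in iOLs. Summed oligodendrocyte markers (8 of 8) had 8378 and 8351 CPM for control iOLs, 1722 and 2442 CPM for cKO iOLs, 6642 and 2410 CPM for control OPCs and 2286, 2992 and 1234 CPM for cKO OPCs. OPC control 1, the library at 6642 CPM, stands apart in its group with 3467 CPM of the myelin gene Mbp against 1120 CPM in OPC control 2. Summed astrocyte markers (7 of 7) were 2978 and 8805 CPM in control OPCs, 2697, 2902 and 7009 CPM in cKO OPCs, 5990 and 6264 CPM in control iOLs and 9005 and 10960 CPM in cKO iOLs, so that they were highest in the day 6 libraries among OPCs and in the cKO libraries among iOLs. Summed neuronal markers (9 of 9) lay between 170.6 and 253.6 CPM in control OPCs, 223.5 and 321.2 CPM in cKO OPCs, 190.4 and 202.7 CPM in control iOLs and 300.6 and 336.2 CPM in cKO iOLs. Of 7 microglial markers the table holds P2ry12, at no more than 2.48 CPM.

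Most CpG dinucleotides of a mammalian genome lie far apart, and PRC2 is known to settle where they are dense. Of the 65 members, 46 have an entry in RefSeq's table of promoters (build GRCm38.p6, the assembly of mm10), with 71 windows of the 250 bases before an annotated transcription start. A window was counted as CpG-rich with at least 50% G and C and an observed-to-expected CpG ratio of at least 0.6. Of the member windows 53.5% (38 of 71) were CpG-rich, against 31.3% of all 32851 windows. Those windows belong to 27025 genes, more than the count table holds, so the 2 shares do not compare members with the other genes analysed. Of the windows of matching symbols that are not in the count table, 48.3% (14 of 29) were CpG-rich. Among the members later called higher in a cKO comparison the share was 65.2% (15 of 23 windows), and among the others 47.9% (23 of 48). The 23 windows belong to 15 of the 22 members called higher, and the 48 to 31 other members. A gene with several windows is counted once for each. The letters TATAAA, searched on both strands, were in 5.6% of member windows and 12.4% of all windows, and the homeodomain core TAATTA in 5.6% and 4.8%. These shares describe the windows and no test was made on them. The windows of Emx1 and En1, called higher in cKO cells at both stages, and of Nr2f1, called higher in cKO iOLs and not in OPCs, are shown beside that of Pbx2, which passed the test in no comparison, with each CG in capitals. The Emx1 window is chr6:85187681-85187930 (plus strand, 30 CG), the En1 window chr1:120602237-120602486 (plus strand, 19 CG), the Nr2f1 window chr13:78198874-78199123 (minus strand, 22 CG) and the Pbx2 window chr17:34592009-34592258 (plus strand, 27 CG).
Emx1: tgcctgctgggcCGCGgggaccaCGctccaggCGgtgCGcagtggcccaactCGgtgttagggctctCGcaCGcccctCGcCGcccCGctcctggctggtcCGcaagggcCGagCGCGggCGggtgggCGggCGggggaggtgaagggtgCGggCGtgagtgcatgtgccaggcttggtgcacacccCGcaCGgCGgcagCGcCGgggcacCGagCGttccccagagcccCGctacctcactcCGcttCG
En1: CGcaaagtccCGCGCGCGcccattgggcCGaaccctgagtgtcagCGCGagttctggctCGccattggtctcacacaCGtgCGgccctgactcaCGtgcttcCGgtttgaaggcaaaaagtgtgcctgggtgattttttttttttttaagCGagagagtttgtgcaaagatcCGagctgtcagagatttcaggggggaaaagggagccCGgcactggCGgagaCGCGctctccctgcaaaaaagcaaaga
Nr2f1: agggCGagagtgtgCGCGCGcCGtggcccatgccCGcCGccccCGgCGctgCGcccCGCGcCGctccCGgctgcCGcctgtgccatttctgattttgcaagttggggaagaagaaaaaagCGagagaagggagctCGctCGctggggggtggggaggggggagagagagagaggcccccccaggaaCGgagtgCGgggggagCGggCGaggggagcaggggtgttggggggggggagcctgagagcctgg
Pbx2: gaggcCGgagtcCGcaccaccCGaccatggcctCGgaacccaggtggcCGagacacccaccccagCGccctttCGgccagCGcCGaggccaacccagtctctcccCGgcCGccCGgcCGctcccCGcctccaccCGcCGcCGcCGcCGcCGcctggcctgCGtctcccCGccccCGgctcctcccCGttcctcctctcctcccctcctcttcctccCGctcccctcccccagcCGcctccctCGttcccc
All 4 windows are CpG-rich by this measure, that of the uncalled Pbx2 among them. Members called higher with a window that is not CpG-rich include Lhx9 (4 CG, CpG ratio 0.22), Meis2 (7 CG, 0.5) and Prdm8 (11 CG, 0.51), which are not shown. Nr2f1 has a second window in the table, chr13:78196450-78196699, with 2 CG, which is not CpG-rich and is not shown.

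In Eed cKO OPCs 13 members were higher than in control OPCs and none lower, at an edgeR adjusted p under 0.05. That is 20% of the members, against a background of 2.94% of all genes called higher and 0.303% called lower. At an unadjusted p under 0.05 the counts were 28 higher and 1 lower, and DESeq2 called 20 higher and none lower. Pax1, Onecut2, Alx4 and Lhx9 were each more than 4-fold higher. In cKO iOLs 20 members were higher and 1, Zeb2, was lower (30.8% and 1.54%, against 7.08% and 3.51% of all genes), among them Lhx9, Pax1, Emx1, En1 and Prdm16, each more than 4-fold higher. The median log2 difference of the members was 0.315 in OPCs and 0.596 in iOLs, against −0.0234 and −0.00359 over all genes. Every cKO library lay above every control library for 26 members in OPCs and 54 in iOLs (40% and 83.1%, against 16.9% and 33.6% of all genes), and below for 2 and 3 (17.4% and 34.3% of all genes). In bulk RNA a larger share of cells that express a gene and more RNA of it in each cell cannot be told apart. The astrocyte marker sum, higher in both cKO iOL libraries than in both control iOL libraries, moves with the iOL differences, and its part in them was not tested. Gfap was the largest part of that sum in iOLs, at 3778 and 3655 CPM in controls and 6115 and 7938 CPM in cKO libraries. None of the 7 astrocyte markers was called in iOLs. The iOL groups of Aqp4 overlapped, while for the other astrocyte markers both cKO libraries were above both controls. The oligodendrocyte marker sum was lower in the cKO iOL libraries and the neuronal sum higher, and their part was not tested either. Of 6 endothelial markers the table holds Flt1 and Kdr, both called higher in cKO cells at both stages. Pecam1, Cldn5, Cdh5 and Tek were not analysed here. Summed, the pair had 1.88 and 2.79 CPM in control OPCs, 10.3, 10.5 and 9.70 CPM in cKO OPCs, 40.4 and 35.3 CPM in control iOLs and 87.5 and 103.5 CPM in cKO iOLs. Of 3 ependymal markers the table holds Foxj1, which ran from 7.38 to 8.63 CPM over the OPC libraries, stood at 23.6 and 34.1 CPM in control iOLs and was called higher in cKO iOLs at 45.7 and 48.7 CPM. These markers move with the member differences, in OPCs too for the endothelial pair, and their part was not tested.

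**Figure D1:**
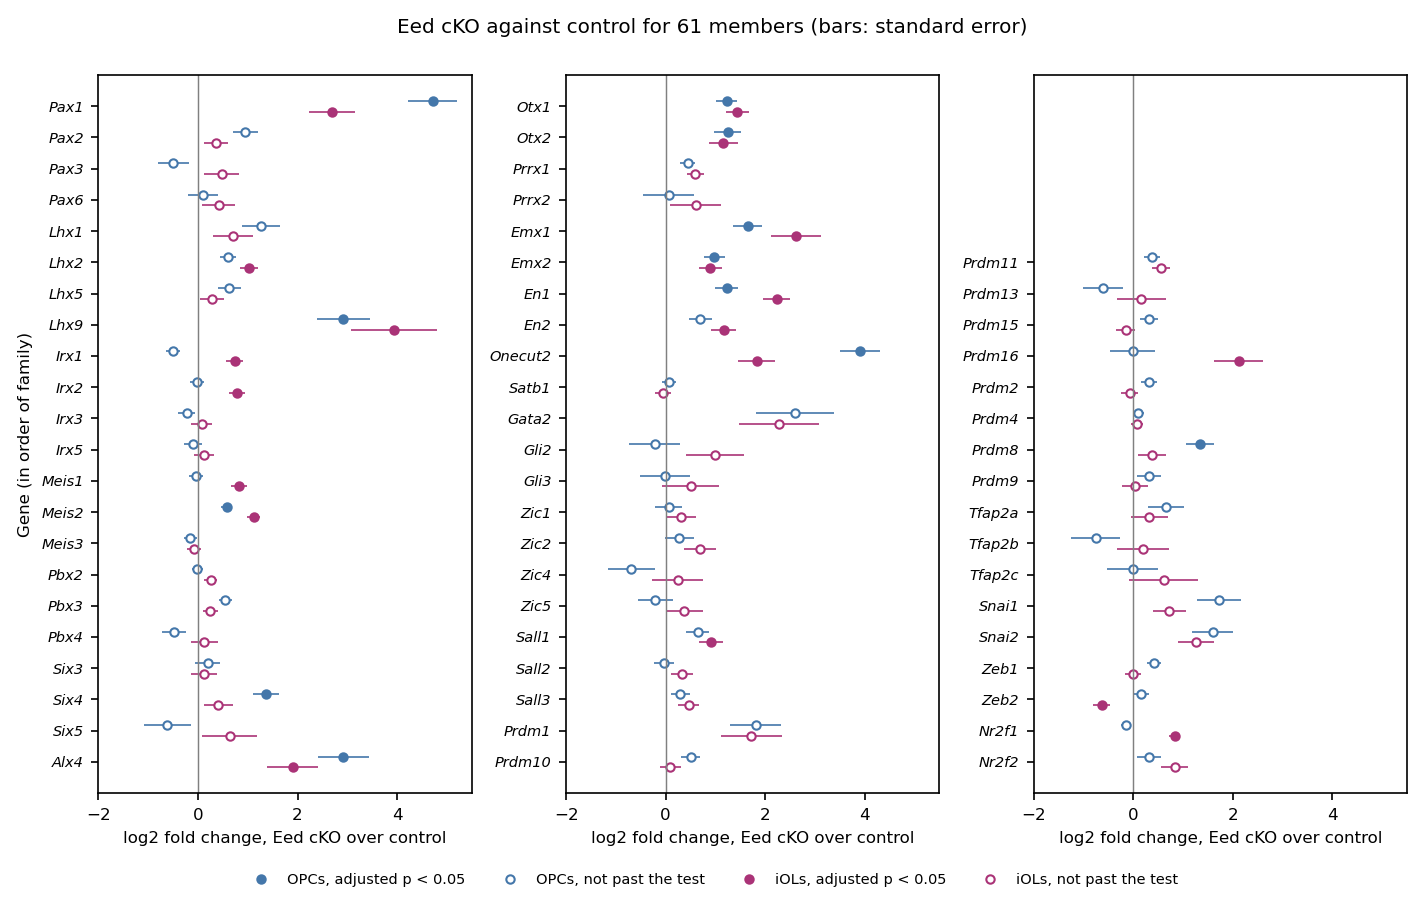
The plot shows the log2 fold change of Eed cKO over control for 61 of the 65 members in OPCs (blue) and iOLs (purple), with bars of 1 standard error and filled points for an adjusted p under 0.05. The filled points lie right of 0 except Zeb2 in iOLs, and Pax1 (4.72) and Onecut2 (3.90) in OPCs and Lhx9 (3.93) in iOLs lie farthest right.

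The table keeps only genes with 10 or more counts in at least 4 libraries and at least 1 in each. For 10 members (among them Pax1, Lhx9, Alx4, Emx1, Gata2, Prdm1, Tfap2c, Snai1 and Snai2) fewer than 4 control libraries reach 10 counts, so they are in the table through cKO libraries, and a difference in these genes is partly a condition of their being listed. Of these 10, 5 were called higher in OPCs and 5 in iOLs. Of the other 55 members, 8 were called higher in OPCs (14.5%) and 15 in iOLs (27.3%).

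The OPC and iOL comparisons share no library. The same 11 members were higher in both, among them Pax1, Onecut2, Lhx9, Alx4, Emx1, Emx2, En1, Otx1, Otx2 and Meis2, which is 84.6% of those called in OPCs and 55% of those called in iOLs. Over all genes the shares were 55.9% and 23.3%, and 1.65% of all genes were called higher in both, against 16.9% of the members. The 11 include Pax1, Lhx9, Alx4 and Emx1, which are in the table through cKO libraries. For such genes a difference at both stages is partly a condition of their being listed, and the shared count was not taken again without them. Six4 and Prdm8 passed the test in OPCs and not in iOLs, and in iOLs 9 members were called higher, and Zeb2 lower, that were not called in OPCs. The difference between the 2 effects was itself called for 2 members, Irx1 and Nr2f1, both with a larger cKO effect in iOLs (background 0.945% higher), and for none in the other direction (background 0.886%). At an unadjusted p under 0.05 that difference was larger in iOLs for 7 members and smaller for 5, and DESeq2 called 5 and 2. With postnatal day as a term 6 were called larger in iOLs and 2 smaller. For 42 members neither cKO comparison passed the test, with log2 differences from −0.76 to 2.597 in OPCs and from −0.15 to 2.28 in iOLs.

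Over 2 days of differentiation of control cells 10 members rose and 16 fell by edgeR's test. The shares of the members, 15.4% and 24.6%, are near or below the background of 21% and 25.3% of all genes. Both control iOL libraries are of postnatal day 6, while OPC control 1 is of day 7. With postnatal day as a term 10 members rose and 25 fell, and 7028 genes were called in all, against 6270 without it. The directions over all genes were not counted under that setting. In cKO cells 11 rose and 17 fell, or 16.9% and 26.2% (background 18.5% and 21.8%). With the day term the counts in cKO cells were again 11 and 17, not all of the same members. These 2 comparisons share no library either, and 10 members fell in both, 62.5% of the 16 and 58.8% of the 17, while 5 rose in both, 50% and 45.5%. Over all genes 66.7% and 77.3% of those that fell, and 61.5% and 69.9% of those that rose, did so in both genotypes. The member shares rest on 16, 17, 10 and 11 genes and were not tested against these. Of all genes 16.9% fell and 12.9% rose in both, and of the members 15.4% and 7.69%. No member rose in one genotype and fell in the other. Each differentiation comparison shares its libraries with the cKO comparisons, so their values for a gene are set side by side and not correlated.

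Calls depended on which libraries were kept. The OPC calls of Pax1 and Onecut2 and the iOL calls of En1, Meis2 and Nr2f1 held under all 17 alternative settings tried. Without OPC control 1, the library with the high Mbp level, 7 members were called in OPCs, 6 of them among the 13, Pax1, Onecut2, Lhx9, En1 and Prdm8 included. The adjusted p of the other 7 of the 13 then ran from 0.0945 (Emx1) to 0.179 (Otx2). Compared within each postnatal day, 40 of the 65 members were higher in cKO OPCs on both days and 10 lower on both (61.5% and 15.4%, against 28.5% and 32.2% of all genes). The 13, which were called on these same libraries, are among the 40. With the day 6 libraries alone, where each OPC group has 1 library and the spread comes from the iOLs, Pax1 and Onecut2 remained called. The OPC count was 4 without OPC cKO 1, 4 without OPC cKO 2 and 32 without OPC control 2, and the iOL count 5 without either control iOL library and 6 and 10 without cKO iOL 1 and 2. Without at least 1 of the 9 libraries the call was lost for 10 of the 13 members in OPCs (adjusted p from 0.0521 to 0.179) and for 17 of the 21 in iOLs (0.0529 to 0.306). In control differentiation it was lost for 12 of 26, among them Irx5, Onecut2, Pbx4, Prdm2, Prdm4, Prdm8, Prdm10, Prdm13, Satb1, Snai2 and Tfap2a (0.0503 to 0.224). In cKO differentiation it was lost for 17 of 28, among them Irx2, Irx3, Irx5, Lhx9, Meis2, Otx2, Pax1, Pbx3, Prdm4, Prrx2, Sall1, Satb1, Snai2, Tfap2b, Zeb1 and Zic5 (0.0511 to 0.243). With postnatal day as a term the call in cKO differentiation was lost for Lhx9, Otx2, Pax1, Prrx2, Sall1 and Tfap2b, 6 of the 28 (0.058 to 0.19). None of these settings turned the direction of a called difference.

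The paired box genes encode factors of the vertebral column (Pax1), kidney, ear and hindbrain (Pax2), dorsal neural tube and crest (Pax3) and eye and forebrain (Pax6). Pax1 (chromosome 2, 147361930 to 147375049, mm10) was at 0.352 and 0.105 CPM in control OPCs and at 6.46, 6.73 and 4.90 CPM in cKO OPCs, and at 0.682 and 0.278 CPM in control iOLs and 2.87 and 3.38 CPM in cKO iOLs. Its groups did not overlap at either stage, and the control libraries were all under 1 CPM. The control OPC libraries together held 8 counts and the cKO OPC libraries 339, a ratio per scaled total of 27.1 (13.6 to 63.3 as the exact 95% interval, which covers counting error only). The log2 difference was 4.72 ± 0.49 in OPCs (edgeR adjusted p = 9.36e-04) and 2.69 ± 0.46 in iOLs (adjusted p = 0.00679), the latter lost without iOL control 2 (adjusted p = 0.0573). In cKO cells Pax1 fell by 0.94 ± 0.34 during differentiation (adjusted p = 0.0491), and that call was lost with postnatal day as a term (adjusted p = 0.19).
Pax2 rose in differentiation in both genotypes, from 2.81 and 5.05 CPM to 12.3 and 14.6 CPM in controls (log2 1.76 ± 0.27, adjusted p = 6.69e-04) and from 7.60, 7.22 and 8.05 CPM to 15.4 and 18.9 CPM in cKO cells (1.17 ± 0.23, adjusted p = 0.0029). Its cKO difference did not pass the test at either stage. Pax6, at 24.5 to 58.8 CPM over the 9 libraries, passed the test in no comparison, nor did Pax3.

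LIM homeodomain proteins bind Ldb cofactors and specify forebrain and interneuron fates. Lhx2, a factor of cortex, hippocampus and eye, was at 42.7 and 54.5 CPM in control OPCs, 69.1, 65.7 and 87.0 CPM in cKO OPCs, 17.2 and 18.0 CPM in control iOLs and 38.4 and 33.5 CPM in cKO iOLs. The cKO libraries lay above the controls at both stages, and the difference passed the test in iOLs (log2 1.03 ± 0.18, edgeR adjusted p = 0.00783) and not in OPCs (0.60 ± 0.16, adjusted p = 0.0826). The iOL call of Lhx2 was lost without either control iOL library or iOL cKO 1 (adjusted p from 0.0562 to 0.0817). Lhx2 fell during differentiation in controls (by 1.47 ± 0.18) and in cKO cells (by 1.04 ± 0.17). Lhx9, a factor of gonad and diencephalon, was held at 1 count in each control iOL library and 18 in each cKO iOL library, a ratio of 17.0 with a counting interval of 4.38 to 146. In OPCs it was at 0.644 and 0.158 CPM in controls and 3.42, 3.77 and 1.86 CPM in cKO libraries, again without overlap (log2 2.92 ± 0.53, adjusted p = 0.0183). Lhx9 fell in differentiating cKO cells by 1.65 ± 0.46 (adjusted p = 0.0179, and 0.0858 with postnatal day as a term). Its iOL call was lost without any 1 of the 4 iOL libraries (adjusted p from 0.0766 to 0.138), and its OPC call without OPC cKO 1 or 2 (0.073 and 0.0716). Lhx1 and Lhx5 passed no test.

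Among the 11 TALE genes 1 was higher in cKO OPCs and 5 in cKO iOLs, beside 2.94% and 7.08% of all genes. In differentiating controls 7 fell and none rose, beside 25.3% and 21% of all genes. Meis2, a Hox and Pbx partner, was at 55.4 and 62.9 CPM in control OPCs and 88.9, 88.6 and 86.8 CPM in cKO OPCs, and at 57.0 and 53.7 CPM in control iOLs and 131 and 109.5 CPM in cKO iOLs. Its groups were apart at both stages, with log2 differences of 0.57 ± 0.12 (edgeR adjusted p = 0.0298) and 1.12 ± 0.13 (adjusted p = 0.00118). Meis2 did not pass the test in control differentiation and rose by 0.45 ± 0.11 in cKO cells (adjusted p = 0.0111). The OPC call of Meis2 was lost without OPC control 1, OPC cKO 1 or OPC cKO 2 (adjusted p from 0.116 to 0.12) and without either control iOL library (0.0638 and 0.0639).
Meis1, a relative of Meis2, fell by 0.69 ± 0.15 in control differentiation and did not pass the test in cKO cells. Meis1 was at 28.2 and 29.6 CPM in control iOLs and 56.6 and 45.7 CPM in cKO iOLs (log2 0.82 ± 0.15, adjusted p = 0.0107), the latter close to its 42.5 to 50.9 CPM over the 5 OPC libraries. That call too was lost without either control iOL library or iOL cKO 1 (0.0693 to 0.104). Pbx4 fell in controls (by 1.104 ± 0.27) and Pbx3 in cKO cells (by 0.60 ± 0.14). Meis3 and Pbx2 passed no test.

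The Iroquois genes Irx1 and Irx2 lie 660.7 kb apart on chromosome 13, and Irx3 and Irx5 556.1 kb apart on chromosome 8. All 4 fell in differentiation in both genotypes, as did 16.9% of all genes. Irx1 was at 70.9 and 58.9 CPM in control OPCs and 51.1, 38.6 and 47.2 CPM in cKO OPCs, and at 13.3 and 12.9 CPM in control iOLs and 22.4 and 21.3 CPM in cKO iOLs. The cKO libraries thus lay below the controls in OPCs and above them in iOLs. The iOL difference passed the test (log2 0.73 ± 0.17, edgeR adjusted p = 0.0235) and the OPC difference did not (−0.51 ± 0.14, adjusted p = 0.0949). The iOL call of Irx1 was lost without any 1 of the 4 iOL libraries (adjusted p from 0.0958 to 0.145). The difference between the 2 effects was 1.24 ± 0.22 (adjusted p = 0.032). Put as differentiation, Irx1 fell by 2.31 ± 0.17 in controls (adjusted p = 1.31e-05) and by 1.06 ± 0.15 in cKO cells (adjusted p = 5.76e-04).
Irx2 was at 17.3 and 15.4 CPM in control iOLs and 28.9 and 27.6 CPM in cKO iOLs (log2 0.79 ± 0.17, adjusted p = 0.0167), with overlapping groups in OPCs, between 39.2 and 52.2 CPM. The iOL call of Irx2 was lost in the same way (0.0779 to 0.132). Its difference between the 2 effects was 0.81 ± 0.22 and did not pass the test (adjusted p = 0.0992). Irx3 and Irx5 fell by 1.0 ± 0.20 and 0.77 ± 0.20 in controls and by 0.70 ± 0.18 and 0.54 ± 0.19 in cKO cells, and no cKO difference of either passed the test.

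Sine oculis proteins act with Eya cofactors in muscle, sense organs and kidney. Six4 was at 3.34 and 4.0 CPM in control OPCs and 10.2, 11.3 and 6.97 CPM in cKO OPCs, apart from each other (log2 1.36 ± 0.25, edgeR adjusted p = 0.0216), and at 2.61 and 3.16 CPM in control iOLs and 3.99 and 3.70 CPM in cKO iOLs (0.41 ± 0.28, adjusted p = 0.466). The OPC call was lost without OPC control 1, OPC cKO 1 or OPC cKO 2 (adjusted p = 0.12, 0.0949 and 0.0913). Six4 fell by 1.30 ± 0.25 in differentiating cKO cells (adjusted p = 0.00311). Its 3 highest libraries are the cKO OPCs, and its level in cKO iOLs was near that of control OPCs. Six3 and Six5 passed no test.

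Otx1 and Otx2 specify forebrain and midbrain. Otx1 was at 9.61 and 12.5 CPM in control OPCs and 29.1, 27.7 and 20.8 CPM in cKO OPCs, and at 6.93 and 8.88 CPM in control iOLs and 23.6 and 19.2 CPM in cKO iOLs. Otx2 was at 4.28 and 6.95 CPM in control OPCs and 16.6, 12.8 and 10.6 CPM in cKO OPCs, and at 3.12 and 3.94 CPM in control iOLs and 7.77 and 8.04 CPM in cKO iOLs. For both genes the groups were apart at both stages, by 1.23 ± 0.21 and 1.44 ± 0.23 on the log2 scale for Otx1 (edgeR adjusted p = 0.016 and 0.00534) and by 1.24 ± 0.27 and 1.16 ± 0.30 for Otx2 (0.0393 and 0.038). The cKO difference within OPCs was larger on day 7 than on day 6, 1.55 and 0.73 for Otx1 and 1.75 and 0.60 for Otx2 in log2 CPM, with 1 or 2 libraries a day and no test of that difference. Without OPC control 1, OPC cKO 1 or OPC cKO 2 the OPC call of Otx1 was lost (0.0651 to 0.103), and without iOL control 1 its iOL call (0.0674). Otx2 was the less firm of the pair, with its OPC call lost under 9 of 17 settings and its iOL call under 5.
Alx4, a factor of skull and limb, rose from 0.117 and 0.369 CPM in control OPCs to 1.41, 1.72 and 2.63 CPM in cKO OPCs, or from 9 counts to 109 (ratio 7.75, counting interval 3.94 to 17.4, log2 2.92 ± 0.52, adjusted p = 0.0178). Alx4 lost this OPC call under 4 of 17 settings. With only the groups compared and without OPC cKO 2 Alx4 had an edgeR adjusted p of 0.0639 and 0.0557. In iOLs it was at 0.341 and 0.500 CPM in controls and 1.33 and 1.85 CPM in cKO libraries (1.90 ± 0.51, adjusted p = 0.0448), a call lost without any 1 of the 4 iOL libraries (adjusted p from 0.116 to 0.271). Prrx1, a factor of limb and craniofacial mesenchyme, fell in differentiation in both genotypes, by 1.83 ± 0.18 in controls and 1.68 ± 0.16 in cKO cells. Its cKO differences did not pass the test. Prrx2 rose in cKO cells (1.45 ± 0.47, adjusted p = 0.0353), a call lost with postnatal day as a term (adjusted p = 0.058).

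All 4 Emx and engrailed genes were higher in cKO iOLs and 3 of them in cKO OPCs, beside 7.08% and 2.94% of all genes. Emx1, a factor of the dorsal forebrain (chromosome 6, 85187931 to 85204463), had the window with 30 CG shown above. It was at 1.35 and 1.47 CPM in control OPCs and 4.88, 3.66 and 4.80 CPM in cKO OPCs, and at 0.170 and 0.111 CPM in control iOLs and 1.12 and 0.687 CPM in cKO iOLs. The groups were apart at both stages (log2 1.65 ± 0.29 and 2.63 ± 0.50, edgeR adjusted p = 0.0179 and 0.0116). The control iOLs held 5 counts in all and the cKO iOLs 34, a ratio of 6.42 with a counting interval of 2.499 to 21.0. The iOL call of Emx1 was lost without either control iOL library or iOL cKO 1 (0.0719 to 0.0915), and its OPC call without OPC control 1 or OPC cKO 1 (0.0945 and 0.0803). In differentiation Emx1 fell by 3.27 ± 0.48 in controls and fell by 2.29 ± 0.31 in cKO cells.
Emx2, its relative in cortex and hippocampus, was at 6.91 and 7.42 CPM in control OPCs and 12.3, 14.8 and 15.3 CPM in cKO OPCs (0.98 ± 0.21, adjusted p = 0.0415). In iOLs it was at 7.16 and 6.38 CPM in controls and 15.2 and 9.99 CPM in cKO libraries (0.90 ± 0.23, adjusted p = 0.0376). The groups of Emx2 did not overlap, but its calls were lost under 7 of 17 settings in OPCs and 6 in iOLs.
En1, a midbrain and hindbrain boundary factor (chromosome 1, 120602487 to 120607991), was at 4.80 and 3.42 CPM in control OPCs, 10.9, 10.1 and 7.79 CPM in cKO OPCs, 1.48 and 1.39 CPM in control iOLs and 6.55 and 6.93 CPM in cKO iOLs. Both stages were without overlap, by 1.23 ± 0.23 (adjusted p = 0.023) and 2.23 ± 0.28 (adjusted p = 0.00165). En1 fell by 1.52 ± 0.28 in differentiating controls (adjusted p = 0.00206) and did not pass the test in cKO cells (−0.51 ± 0.22, adjusted p = 0.095), and the difference of the effects was 1.0 ± 0.35 (adjusted p = 0.184). En2, which acts in the same region, was at 11.2 and 12.4 CPM in control iOLs and 27.8 and 25.4 CPM in cKO iOLs (1.17 ± 0.25, adjusted p = 0.0174), and in OPCs its cKO libraries also lay above the controls without passing the test (0.70 ± 0.23, adjusted p = 0.124). The OPC call of En1 was lost without OPC cKO 1 or 2 (adjusted p = 0.106 and 0.0939) and without either cKO iOL library (0.0525 and 0.0521), and the iOL call of En2 without any 1 of the 4 iOL libraries (0.0721 to 0.142).

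**Figure D2:**
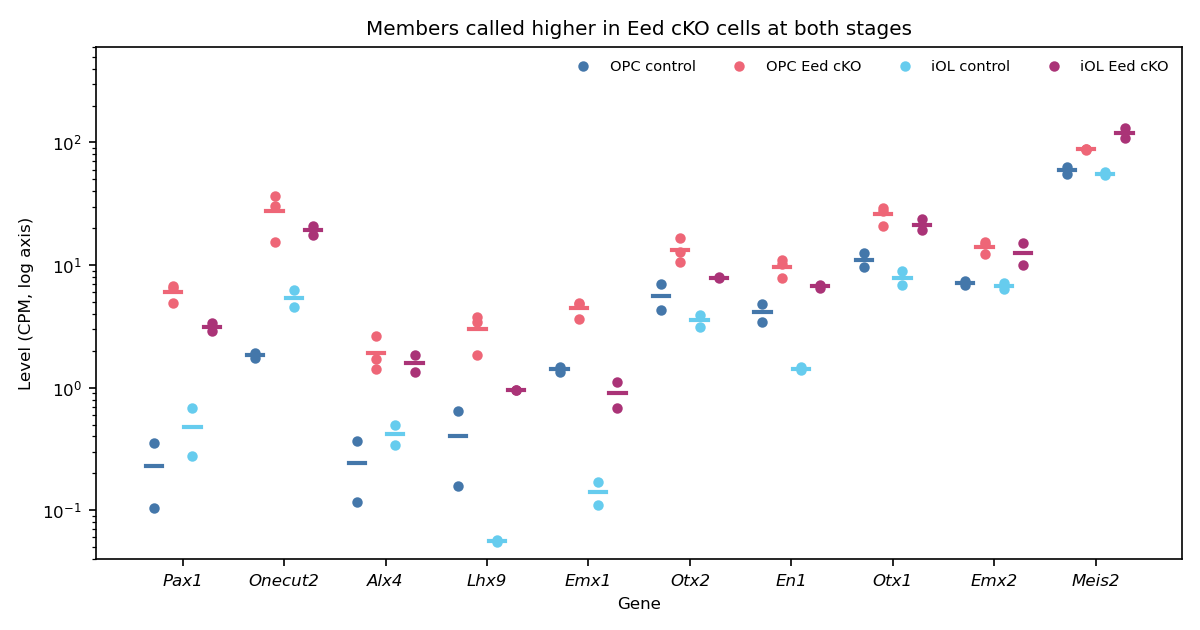
The plot shows the CPM (log axis) in each library of 10 members called higher in Eed cKO cells at both stages, with points for libraries and bars for group means. The control and cKO libraries of a stage do not overlap for any of the 10, and the spread among cKO OPC libraries is seen at Onecut2, from 15.5 to 36.8 CPM.

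Onecut2, a CUT homeodomain factor of liver, pancreas and motor neurons, was at 1.93 and 1.74 CPM in control OPCs and 30.2, 36.8 and 15.5 CPM in cKO OPCs, and at 4.54 and 6.27 CPM in control iOLs and 17.6 and 20.9 CPM in cKO iOLs. The lowest cKO library of each stage was far above the highest control. The difference was 3.90 ± 0.40 in OPCs (edgeR adjusted p = 9.14e-04), or 14.9-fold by counts (66 against 1540, counting interval 11.7 to 19.4), and 1.83 ± 0.37 in iOLs (adjusted p = 0.0136). Onecut2 rose in control differentiation by 1.56 ± 0.42 (adjusted p = 0.0141) and did not pass the test in cKO cells (−0.51 ± 0.31). Its iOL call was lost without any 1 of the 4 iOL libraries (adjusted p from 0.056 to 0.127). The smaller effect in iOLs, −2.07 ± 0.53 as a difference, did not pass the test (adjusted p = 0.0855).
Satb1, a chromatin organiser of T cells and neurons, was at 92.1 to 160.8 CPM and fell by 0.54 ± 0.14 in cKO differentiation. Satb1 also fell in controls by 0.43 ± 0.16 (adjusted p = 0.0474), a call lost under 12 of 17 settings, RLE scaling among them, and the 2 cKO effects did not pass the test.

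Gata2, a blood and neuronal factor and the one GATA gene in the table, was at 1.23 and 0.0526 CPM in control OPCs and 3.64, 4.42 and 3.36 CPM in cKO OPCs, and at 0.227 and 1.22 CPM in control iOLs and 4.04 and 3.07 CPM in cKO iOLs. All cKO libraries exceeded all controls, but the controls spread widely and neither difference passed the test (log2 2.597 ± 0.78 and 2.28 ± 0.80, edgeR adjusted p = 0.108 and 0.113).

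GLI and ZIC proteins are zinc finger factors, GLI as the end of the hedgehog pathway and ZIC in dorsal neural tube and cerebellum. With edgeR none of Gli2, Gli3, Zic1, Zic2, Zic4 and Zic5 was called in either cKO comparison, with log2 differences from −0.69 to 0.28 in OPCs and from 0.24 to 0.98 in iOLs, where all 6 estimates were above 0. At an unadjusted p under 0.05 the count of these 6 was 0 at both stages. Gli2 was at 7.21 and 31.1 CPM in control OPCs, 13.0, 11.5 and 24.8 CPM in cKO OPCs, 8.41 and 11.8 CPM in control iOLs and 18.9 and 21.1 CPM in cKO iOLs. Zic1 was at 39.7 and 86.3 CPM in control OPCs, 61.8, 56.8 and 78.2 CPM in cKO OPCs, 57.3 and 64.5 CPM in control iOLs and 80.5 and 70.6 CPM in cKO iOLs. Within each OPC group the day 6 library held the highest level of both genes. For these 6 genes the day 6 control OPC library exceeded the day 7 one between 2.17-fold (Zic1) and 4.27-fold (Gli2), and the day 6 cKO OPC library exceeded the mean of the day 7 ones between 1.32-fold (Zic1) and 2.79-fold (Zic4), from log2 CPM with a prior count of 2. The summed astrocyte markers differed in the same way, 8805 against 2978 CPM in controls and 7009 against 2697 and 2902 CPM in cKO OPCs. Their part in the GLI and ZIC levels was not tested, and with 1 or 2 libraries a day no test between days was made. Zic5 rose in cKO differentiation (1.26 ± 0.34, edgeR adjusted p = 0.0157), from 5.53, 5.76 and 9.19 CPM to 17.6 and 15.2 CPM. The Zic5 call was lost without OPC cKO 1 or 2 or either cKO iOL library (adjusted p from 0.0564 to 0.097). Over all 65 members the day 6 library was above the day 7 level for 48 in control OPCs and for 30 in cKO OPCs. The same count was not made over all genes. The median log2 difference, day 6 minus day 7, was 0.374 for the members and −0.0271 for all genes in control OPCs. In cKO OPCs these medians were −0.0397 and −0.0044. The control values set 1 library against 1, and the day 7 one is OPC control 1, with the high Mbp level.

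**Figure D3:**
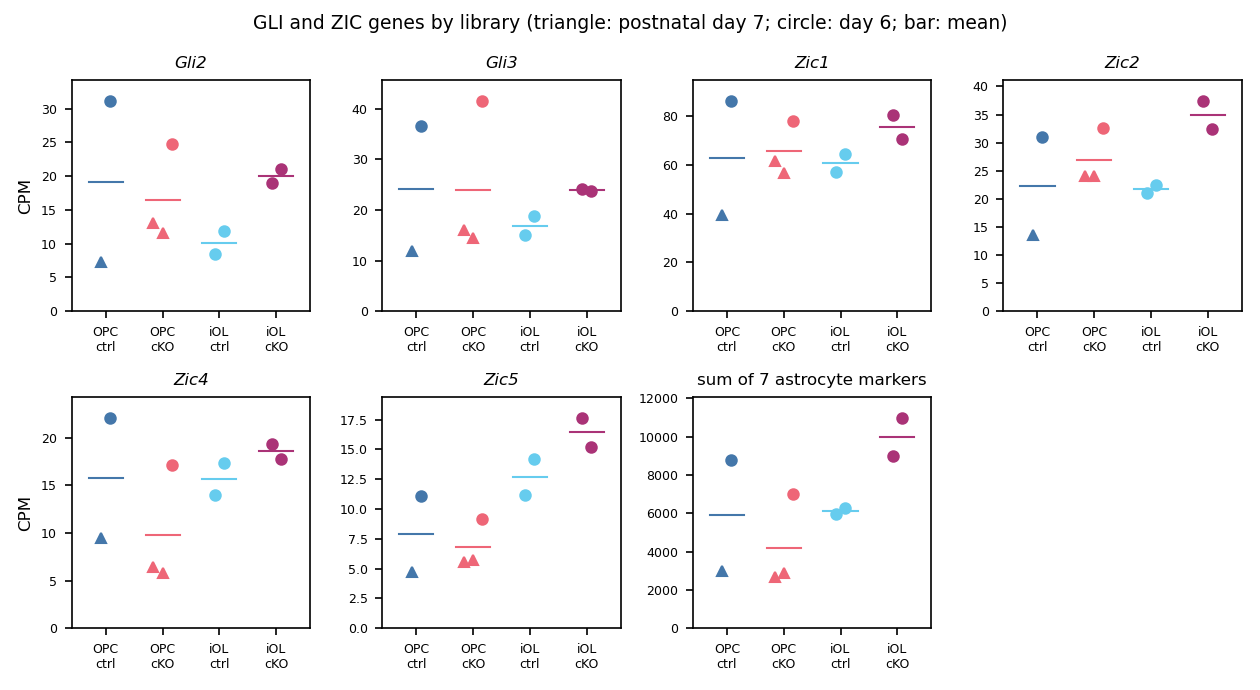
The panels show the CPM of 6 GLI and ZIC genes and the summed CPM of 7 astrocyte markers in each library, by group, with triangles for postnatal day 7, circles for day 6 and bars for means. In both OPC groups the circle lies above the triangles for Gli2, Gli3, Zic1, Zic2, Zic4, Zic5 and the marker sum.

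Sall genes encode zinc finger repressors of limb, kidney and neural development. Sall1 was at 55.6 and 49.7 CPM in control iOLs and 103.1 and 95.02 CPM in cKO iOLs, without overlap (log2 0.91 ± 0.25, edgeR adjusted p = 0.0475). This was among the least firm calls: it was lost under 9 of 17 settings, including RLE scaling (adjusted p = 0.0538) and the omission of any 1 of the 4 iOL libraries (0.149 to 0.238). In OPCs Sall1 was at 27.0 and 48.0 CPM in controls and 62.6, 47.4 and 65.7 CPM in cKO libraries, with overlap and no call. Sall1 rose in cKO differentiation (0.76 ± 0.22, adjusted p = 0.0229, and 0.0964 with postnatal day as a term). Sall3 fell in differentiation in both genotypes, by 1.25 ± 0.21 in controls and 1.08 ± 0.20 in cKO cells. Sall2, at 100.6 to 162.9 CPM over the 9 libraries, passed no test.

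PRDM proteins are a family of zinc finger factors, some with methyltransferase activity. Of the 11 members 1 was called higher in cKO OPCs and another in cKO iOLs, beside 2.94% and 7.08% of all genes. Prdm16, known for brown fat and radial glia, was at 5.80 and 16.1 CPM in control OPCs, 7.81, 7.11 and 17.7 CPM in cKO OPCs, 12.1 and 14.2 CPM in control iOLs and 55.6 and 58.5 CPM in cKO iOLs. The groups overlapped in OPCs, where the day 6 library was highest in each, and both cKO iOL libraries were far above every other library. The iOL difference was 2.12 ± 0.49 (edgeR adjusted p = 0.0256), with OPCs at −0.02 ± 0.45 and the difference between them at 2.13 ± 0.66 (adjusted p = 0.136). The iOL call of Prdm16 was lost without any 1 of the 4 iOL libraries (adjusted p from 0.108 to 0.185). Prdm16 rose by 2.39 ± 0.43 in cKO differentiation (adjusted p = 0.00214) and did not pass the test in controls (0.26 ± 0.49).
Prdm8, a neuronal factor, was at 7.44 and 4.16 CPM in control OPCs and 16.7, 16.5 and 10.8 CPM in cKO OPCs (1.34 ± 0.28, adjusted p = 0.0349), and at 11.6 and 13.4 CPM in control iOLs and 15.3 and 17.2 CPM in cKO iOLs (0.38 ± 0.29). It rose in control differentiation by 1.11 ± 0.30. The OPC call of Prdm8 was lost under 8 of 17 settings. In controls Prdm2, Prdm4 and Prdm10 rose during differentiation (0.57 ± 0.17, 0.38 ± 0.12 and 0.64 ± 0.21), Prdm13 fell (by 1.73 ± 0.47), and in cKO cells Prdm4 rose (0.36 ± 0.11). Prdm1, Prdm9, Prdm11 and Prdm15 passed no test.

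AP-2 proteins act in neural crest and skin. Of the 3 members Tfap2a rose in control differentiation (1.14 ± 0.39, edgeR adjusted p = 0.0366), from 1.88 and 5.53 CPM to 7.67 and 8.77 CPM. Tfap2b rose in cKO differentiation (1.57 ± 0.48, adjusted p = 0.0277), from 2.71, 2.75 and 4.95 CPM to 10.2 and 10.5 CPM. The Tfap2a call was lost under 9 of 17 settings and the Tfap2b call under 5. Neither gene, nor Tfap2c, was called in a cKO comparison by edgeR, and at an unadjusted p under 0.05 the count was 0 at both stages.

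Snai and Zeb proteins repress epithelial genes, and Zeb2 is known to be needed for oligodendrocyte maturation. Zeb2 (chromosome 2, 44983512 to 45117442) was at 98.6 and 134.7 CPM in control OPCs, 138.5, 139.5 and 112.1 CPM in cKO OPCs, 596.8 and 522.6 CPM in control iOLs and 354.3 and 364.4 CPM in cKO iOLs. OPC groups overlapped, both iOL groups were above all OPCs, and the cKO iOLs were below the control iOLs. Zeb2 rose in differentiation by 2.26 ± 0.18 in controls (edgeR adjusted p = 2.13e-05) and 1.47 ± 0.16 in cKO cells (adjusted p = 1.14e-04). It was the one member called lower in a cKO comparison (log2 −0.64 ± 0.18, adjusted p = 0.0491), a call at the edge of the threshold that was lost under RLE scaling (adjusted p = 0.0564) and without any 1 of the 4 iOL libraries (0.117 to 0.29). The difference of the effects was −0.80 ± 0.24 and did not pass the test (adjusted p = 0.126). The oligodendrocyte marker sum of these libraries, 8378 and 8351 against 1722 and 2442 CPM, was lower in the same direction, and its part was not tested.
Snai1 rose in differentiation in both genotypes, from 0.234 and 0.579 CPM to 4.60 and 2.998 CPM in controls (3.18 ± 0.44, adjusted p = 4.14e-04) and from 1.19, 1.51 and 1.45 CPM to 7.40 and 5.18 CPM in cKO cells (2.18 ± 0.32, adjusted p = 7.02e-04). Snai2 rose as well, by 1.64 ± 0.44 and 1.31 ± 0.32. Both Snai genes were above the controls in every cKO library of both stages without passing the test there (adjusted p from 0.0547 to 0.243). Zeb1 was at 257 to 440.7 CPM over the 9 libraries and fell by 0.58 ± 0.14 in cKO differentiation (adjusted p = 0.01), with no call in the other comparisons.

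**Figure D4:**
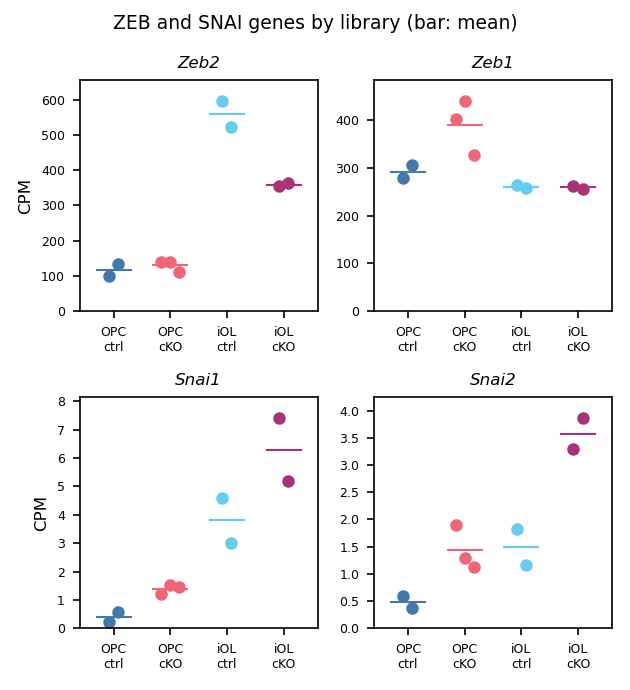
The panels show the CPM of Zeb2, Zeb1, Snai1 and Snai2 in each library by group, with points for libraries and bars for means. Zeb2 is higher in iOLs than in OPCs and lower in cKO than in control iOLs, whereas both Snai genes are highest in cKO iOLs.

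Nr2f1 and Nr2f2, also known as COUP-TF1 and COUP-TF2, are orphan nuclear receptors that pattern the cortex. Nr2f1 (chromosome 13, 78188971 to 78198873) was at 134.3 and 137.3 CPM in control OPCs, 127.2, 112.7 and 128.6 CPM in cKO OPCs, 79.0 and 74.7 CPM in control iOLs and 141.1 and 131.7 CPM in cKO iOLs. The control iOLs stood below all other libraries, and the cKO iOLs were near the level of control OPCs. Nr2f1 fell by 0.82 ± 0.11 in control differentiation (edgeR adjusted p = 3.94e-04) and did not pass the test in cKO cells (0.15 ± 0.10, adjusted p = 0.267). The cKO difference was 0.83 ± 0.11 in iOLs (adjusted p = 0.00249) and −0.14 ± 0.10 in OPCs (adjusted p = 0.384), and the difference between them 0.97 ± 0.15 (adjusted p = 0.0218). Nr2f2 was at 15.7 and 14.3 CPM in control iOLs and 24.1 and 29.1 CPM in cKO iOLs, apart but not past the test (0.83 ± 0.27, adjusted p = 0.0858). The calls of this difference for Nr2f1 and Irx1 were each lost without OPC cKO 1 or 2 or any 1 of the 4 iOL libraries, with adjusted p from 0.0753 to 0.126 for Nr2f1 and from 0.0771 to 0.156 for Irx1.

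**Figure D5:**
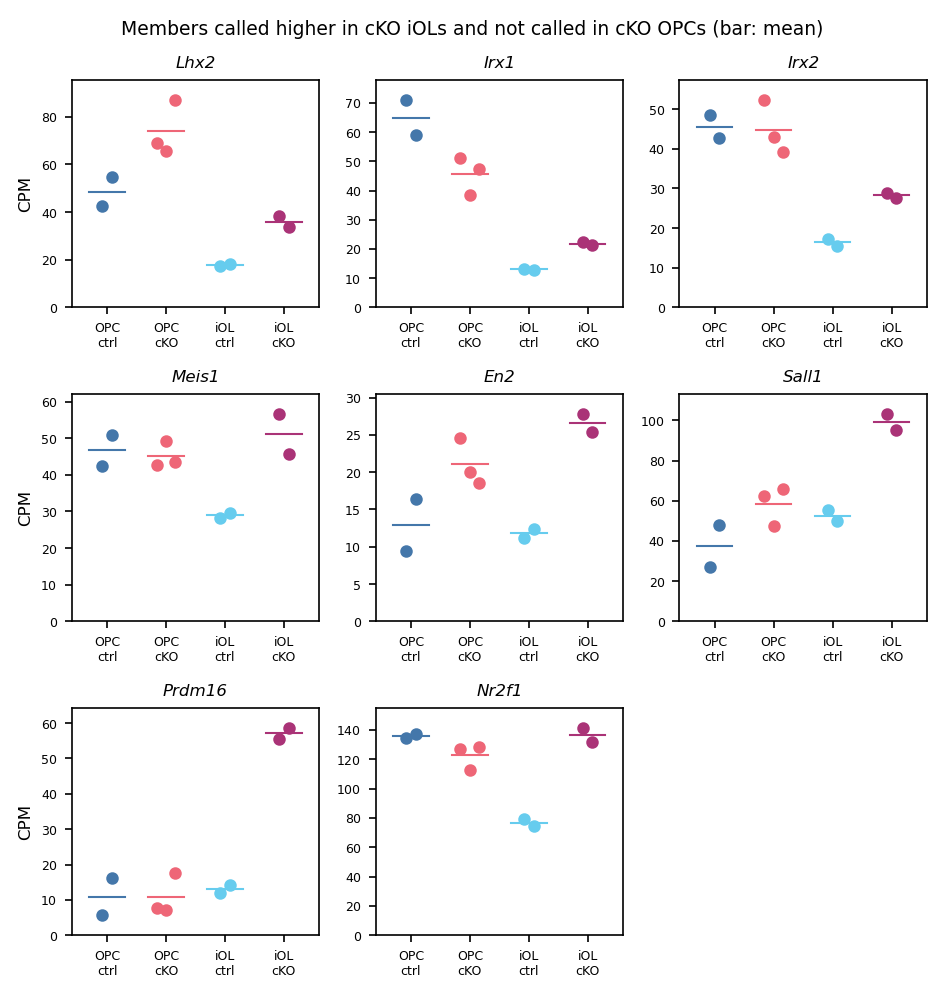
The panels show the CPM in each library of 8 members called higher in cKO iOLs and not called in cKO OPCs, with points for libraries and bars for means. In each panel both cKO iOL libraries lie above both control iOL libraries; the difference from the OPC effect passed its own test for Irx1 and Nr2f1.

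The partners through which these factors act were taken from a list of 49 genes, all in the table. Of these 4 were higher in cKO OPCs and 13 in cKO iOLs, beside 2.94% and 7.08% of all genes, and none was lower at either stage by edgeR's adjusted p. At an unadjusted p under 0.05 the counts were 6 higher and 1 lower in OPCs and 18 higher and 1 lower in iOLs. Eya4, a coactivator of sine oculis proteins, was at 6.44 and 7.74 CPM in control OPCs and 21.9, 26.2 and 19.4 CPM in cKO OPCs, and at 2.39 and 2.55 CPM in control iOLs and 7.77 and 7.83 CPM in cKO iOLs. Its cKO libraries were apart from the controls at both stages (log2 1.66 ± 0.18 and 1.66 ± 0.21, edgeR adjusted p = 0.00143 and 0.00198), as were those of Eya1 (0.72 ± 0.13 and 0.73 ± 0.15). Mkx, a TALE factor of tendon, was higher at both stages (1.34 ± 0.24 and 1.40 ± 0.26), and its relative Pknox1 in iOLs (0.68 ± 0.15).
Cdon, a hedgehog coreceptor, was higher at both stages (1.95 ± 0.22 and 0.89 ± 0.23, adjusted p = 0.00168 and 0.0386), and the coreceptors Gas1 and Boc in iOLs (1.52 ± 0.15 and 0.99 ± 0.26). Gas1 was at 12.8 and 15.4 CPM in control iOLs and 44.1 and 37.1 CPM in cKO iOLs, against 49.1 to 56.6 CPM in OPCs of both genotypes. The other 8 genes of the hedgehog list, Ptch1, Smo and Sufu among them, passed neither cKO test. LIM cofactors were higher in cKO iOLs for 5 of 9 (Ldb2 1.24 ± 0.23, Lmo1 1.497 ± 0.32, Lmo2 1.99 ± 0.46, Ssbp2 0.59 ± 0.16 and Ssbp3 0.70 ± 0.13) and for none in OPCs (at an unadjusted p under 0.05, 7 and 0), and 7 of the 9 fell in control differentiation, where 25.3% of all genes did. The test of the difference between the stages passed for Gas1 (1.595 ± 0.20, adjusted p = 0.0109) and Ldb2 (1.62 ± 0.30, adjusted p = 0.0359). Kctd1, an AP-2 inhibitor, was higher in iOLs (0.83 ± 0.12). None of the 14 corepressor genes of Zeb, Snai, PRDM, Satb and Sall proteins was called in a cKO comparison (unadjusted, 0 in OPCs and 1 each way in iOLs). Over the whole list the median log2 difference was 0.0571 in OPCs and 0.19 in iOLs.

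In the annotation 31 of the 65 members overlap another gene, 3 of them (Pax6, Six3 and Zeb2) one named as antisense to it. Others that were called and overlap a noncoding gene include Pax1, Lhx2, Irx2, Meis1, Meis2, Otx1, Sall1, Prdm16, Prdm8 and Nr2f1. Six4 overlaps the protein-coding gene Mnat1, and Zic1 and Zic4 overlap by 138 bases. The strand setting of the counting is not stated, so reads of such pairs may have been assigned to either or left out, and the values of these genes are uncertain to that extent.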

How the data were processed

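RNA sequencing of 9 libraries was analysed. The series' 4 immunoprecipitation samples were not. The deposited values are raw counts per gene, and per the submitters' processing notes the authors used cutadapt 1.14, STAR 2.6.0 and featureCounts of Subread 1.6.2 with mm10. Per the labels' protocols libraries were made from total RNA with a stranded polyA kit above 100 ng and an amplifying kit below it. The labels say neither which kit each library had nor the strand setting of the counting. A second header line of the table was left out.

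All 9 libraries were fitted together with edgeR 4.0.16 (on limma 3.58.1 and R 4.3.3), using TMM factors, 4 group means and the quasi-likelihood test. The minimum count of 10 of edgeR's filter removed no gene. The common dispersion was 0.0265 and 5 residual degrees of freedom were left. A gene counts as called where its p, adjusted by Benjamini and Hochberg's method over the 13549 genes, is under 0.05. Values after ± are standard errors, obtained by dividing the log2 fold change by the root of the F statistic. No transcript lengths were used, so levels of different genes are not compared. Intervals of count ratios are exact 95% binomial intervals that cover counting error only. Precision is set by the number of libraries and, for genes under about 1 CPM, by counts.

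The members and lists were chosen with earlier results of these data known. Named are called members (4 members are not reported here by name, though counts over the members include them), 1 further gene a family (the highest mean CPM), Lhx9 for its low counts in control iOLs, Eed and called partners; Pax3, Lhx1, Lhx5 and other uncalled members were named after their values were seen. The labels do not say that replicate numbers pair the samples, and number 2 is of day 6 in control OPCs and day 7 in cKO OPCs. In their deviations from group means, same-numbered OPC libraries correlated at 0.313 and −0.352 and same-numbered iOL libraries at 0.239. OPC libraries of the same postnatal day correlated at 0.313, 0.352 and 0.43. In a group of 2 libraries the deviations mirror each other, so these values are not independent and cannot settle whether samples were paired. The test has no day term, which was tried as an alternative. Other settings tried were RLE size factors, a minimum of 1 CPM in 4 libraries, no filter, a fit of only the groups compared, a replicate block, a term for postnatal day, DESeq2 1.42.0 and leaving out each library. The fit of day 6 libraries alone was added after seeing the data.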

Additional observations from a re-analysis of the deposited data

Results flagged for a closer look

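For 2 members the Eed cKO effect differed between the stages by a test of the difference itself. For Irx1 the cKO effect in iOLs exceeded that in OPCs by 1.24 ± 0.22 on the log2 scale (edgeR adjusted p = 0.032), with an effect of 0.73 in iOLs and −0.51 in OPCs. For Nr2f1 the excess was 0.97 ± 0.15 (edgeR adjusted p = 0.0218), with 0.83 in iOLs and −0.14 in OPCs. Both calls held under 10 of 16 alternatives, with adjusted p from 2.64e-04 to 0.156 for Irx1 and from 2.36e-05 to 0.126 for Nr2f1 over the alternatives.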

How the results depend on the processing

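No called difference of a member reversed under any alternative. RLE size factors, no filter and a minimum of 1 CPM in 4 libraries kept every count of called members within 1.5 times of its own value. The 13 calls in OPCs became 4 with only the groups compared, 20 with a replicate block, 22 with postnatal day as a term, 20 with DESeq2 and 2 with day 6 libraries alone, and ran from 4 to 32 with each library left out. The 21 in iOLs became 33 with only the groups compared and 33 with day 6 libraries alone, ran from 5 to 28 with each library left out and were 20 with the replicate block. In control differentiation 26 became 16 and 40 under those 2 settings and 17 to 29 with a library left out, and in cKO differentiation 28 became 13 to 33 with a library left out. The 2 differences between the stages became 5 with the replicate block, 8 with postnatal day as a term, 7 with DESeq2, 5 with day 6 libraries alone and 0 to 10 with a library left out. Why these counts moved was not tested, beyond that a fit on fewer libraries has fewer degrees of freedom. Where a library is left out of a group of 2, the lone library is taken to vary like the other groups. Whether the replicate numbers pair the samples is not known, so it is not known whether the block matches the design. Under the block 3 iOL calls were lost, Emx2 and Sall1 among them (edgeR adjusted p = 0.0573 and 0.0773). Depth limits the members under about 1 CPM, such as Lhx9 with 1 count in each control iOL library.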
